A study of Mus musculus with 6 samples.

Results

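Tight clusters of CTCF regions were taken from the joined table of CTCF binding regions in mouse embryonic stem cells. Regions on chromosomes 1 to 19 and X were sorted by position, neighbours with a gap of at most 5000 bp were chained, and every region in a chain of at least 3 was kept. This gave 10504 of 57644 regions on these chromosomes (18.2%), in 2876 chains, out of 57662 regions in the whole table. A further 13472 regions lay in chains of 2, and 33668 had no neighbour within the limit. The rule used positions only and no measured level. The positions are those of peaks from all 4 libraries joined together, so a chain need not be present in any single library.

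The cells were CTCF-EGFP-AID embryonic stem cells, a line in which both groups carry an endogenous CTCF fused to a fluorescent tag and to a degron that auxin addresses for destruction. In the WT_CTCF group an introduced wild-type CTCF replaced the degraded protein, and in the MUT_CTCF group an introduced CTCF with a threonine changed to alanine, which lacks an O-GlcNAc site, did so. Both were treated with auxin, and both were picked clones, chosen for a level of introduced CTCF similar to the endogenous one. In the libraries used here the mutation and the clone therefore cannot be told apart. From read counts in peaks scaled by spike-in, the paper reports increased global chromatin binding of the mutant CTCF. It also reports more chromatin-bound CTCF by immunoblot, and results of the same kind in additional clones of both groups. Those clones and read counts were not examined here. The peak calls and scores below are another measure, and they fell in MUT_CTCF, so the paper's clones do not bear on that fall. Chromatin immunoprecipitation with a CTCF antibody and sequencing (ChIP-seq) gave 2 libraries per group, with Drosophila chromatin added as a spike-in reference. Files of the 2 inputs were not used here. The study's methods call the replicates biological, but each group is 1 clone, so p-values measure the spread between libraries of these clones.

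CTCF is a DNA-binding protein with an array of zinc fingers that reads a long, directional motif. Together with cohesin, the ring complex that extrudes loops of DNA, it marks the ends of chromatin loops, and loops form mainly between motifs that face each other. Several CTCF sites often lie side by side at domain borders and at gene arrays such as the protocadherins. In mouse, many CTCF sites were spread by B2 elements, short retrotransposons of rodents that carry a CTCF motif in their sequence.

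The sequences below show the motif as it recurs in the chains. A consensus of 12 bases, CCANNAGNNGGC with 8 fixed positions, was derived from the 2000 strongest regions without a neighbour, which are not members. The most frequent stretch of 30 bases around an exact match among all regions without a neighbour occurred 257 times, and regions holding this stretch on either strand with at most 5 mismatches are called B2-type here. A B2-type region can hold another exact motif as well, also nearer its summit. No repeat annotation was used, and related elements can hold similar sequence. Capitals mark the 12-base match, and each sequence reads 5′ to 3′ on the strand of the motif in the reference genome of build mm9. The first 4 regions after the common stretch are from the longest chain, beside Bptf, and the next 4 from the chain at Nanog. All of these but Bptf region 15 hold a B2-type window and show how alike sites within a chain can be. Bptf region 15 holds another motif, with 10 mismatches to the common stretch. The last 4 are motif sites without a B2-type window by this limit, for contrast. They are the strongest sites of the chains near Slc46a1, Rbm19 and Numbl and the strongest exact-motif site of the Ncs1 chain. The strongest region of the Ncs1 chain holds no exact motif. The sites near Slc46a1 and Numbl share the 12-base match of the common stretch and have 9 and 14 mismatches to the whole of it.
Common stretch: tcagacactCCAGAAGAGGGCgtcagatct
Bptf chain, region 6 (chr11:107001845-107001874, plus): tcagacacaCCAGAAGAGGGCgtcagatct
Bptf chain, region 9 (chr11:107008618-107008647, minus): tcagacactCCACAAGAGGGCatcagatct
Bptf chain, region 14 (chr11:107019654-107019683, plus): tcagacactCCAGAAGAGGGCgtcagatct
Bptf chain, region 15 (chr11:107020577-107020606, minus): tcacataagCCAGTAGATGGCagcaaatcc
Nanog chain, region 1 (chr6:122659440-122659469, plus): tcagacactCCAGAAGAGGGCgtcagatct
Nanog chain, region 2 (chr6:122660525-122660554, minus): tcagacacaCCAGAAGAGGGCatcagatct
Nanog chain, region 4 (chr6:122661998-122662027, plus): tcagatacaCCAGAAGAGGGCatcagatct
Nanog chain, region 6 (chr6:122663696-122663725, plus): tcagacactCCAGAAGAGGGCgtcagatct
Chain near Slc46a1, region 2 (chr11:78267342-78267371, plus): gcctgcttgCCAGAAGAGGGCaccagatct
Chain near Rbm19, region 6 (chr5:120552932-120552961, minus): tctctgcggCCACCAGGGGGCgcacagcac
Ncs1 chain, region 2 (chr2:31150680-31150709, minus): ggctcatcaCCACCAGGGGGCgtccccatg
Chain near Numbl, region 1 (chr7:28070930-28070959, minus): ctgcagagaCCAGAAGAGGGCaatgaatgg

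Most chains were short. Of the 2876 chains, 1821 held 3 regions, 609 held 4, 248 held 5 and 39 held 8 or more, and the longest held 18. The median span was 7082 bp, with quartiles of 5355 and 9279 bp and a longest span of 36579 bp. The median gap between neighbours was 2030 bp. Chromosome 11 held 1616 of the clustered regions, 30.8% of its own regions, and chromosome X had the lowest share at 6.95%. Chromosome 11 also had the densest regions, 43.1 per Mb, against 8.20 per Mb on chromosome X, and the part of this density in the share of chained regions was not tested.

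Clustered regions lay at promoters more often than regions without a neighbour. A promoter, the 3000 bp upstream of a transcription start, was touched by 19.9% of clustered regions, 17.3% of those in chains of 2 and 13.7% of those without a neighbour. Introns held 33.2%, 38.7% and 40.6%, and intergenic sequence 42.2%, 40.3% and 42.3%. Clustered regions were also wider, with a median of 494 bp against 436 bp. The authors' mean scaled read count over the 4 libraries had a median of 108 (quartiles 40.5 and 262) in clustered regions and 90.5 (42.0 and 199) in regions without a neighbour. The median G+C content was 46.6% and 45.1%. These shares and medians are over regions and carry no test.

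An exact match to the consensus was present in 50.2% of clustered regions, 48.7% of regions in chains of 2 and 45.8% of those without a neighbour. Intervals of equal width set 5000 bp away matched in 8.41%, 5.02% and 3.37%, and for clustered regions such intervals often touch the next member. With 1 mismatch allowed the shares were 84.6%, 84.9% and 84.9%, but the control intervals then matched in 40.8%, 34.5% and 29.7%. Sites in the chains were therefore described by exact matches. Among clustered regions with 1 exact motif and a peak in every library, the median distance from peak summit to motif centre was 11, 11, 12 and 12 bp in WT_CTCF replicates 1 and 2 and MUT_CTCF replicates 1 and 2.

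Longer chains held a larger share of B2-type regions, as a description without a test. B2-type windows were found in 17.9% of clustered regions (1882), 13.8% of regions in chains of 2 and 10.5% of regions without a neighbour. By chain size the share was 15.4% in chains of 3, 19.3% in chains of 4, 18.5% in chains of 5, 20.7% in chains of 6, 26.1% in chains of 7 and 31.7% in chains of 8 or more. The share with another exact motif went the other way, from 36.5% in chains of 3 to 23.9% in chains of 8 or more. At least 1 B2-type region was present in 1247 chains, at least 3 in 122 chains, and 29 chains held nothing else. The genome held 65537 such windows, of which 7678 (11.7%) lay inside a region and 2026 (3.09%) inside a clustered region. Without chromosome 11, which had the highest B2-type share among clustered regions (26.1%), the shares were 16.4% in clustered regions and 10.1% in regions without a neighbour. Part of this sequence is hard to map, since the median 31-base word had more than 1 genomic copy in 32.7% of clustered B2-type regions against 1.92% of those with another motif. With such regions left out the B2-type shares were 13.1% and 7.38%.

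**Figure D1:**
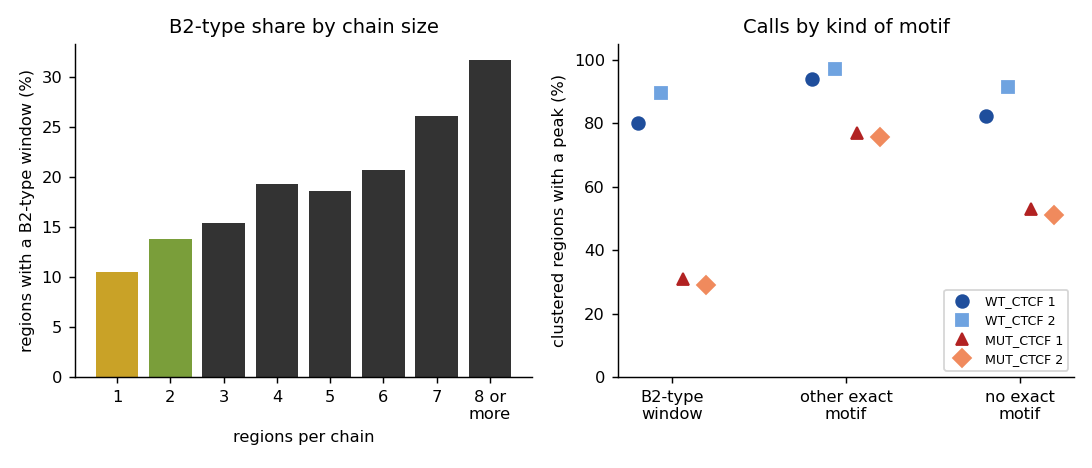
Left, percent of regions with a B2-type window by number of regions per chain (yellow, no neighbour; green, chains of 2; black, clustered). The share goes from 10.5% to 31.7%. Right, percent of clustered regions with a peak in each library (1 point per library) by kind of motif, where the MUT_CTCF points of B2-type regions lie at 31.1% and 29.2%.

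Fewer clustered regions were called in MUT_CTCF than in WT_CTCF. Regions enter the joined table only through a peak, and WT_CTCF peaks supplied most of the positions. The WT_CTCF lists held 49987 and 54001 peaks and the MUT_CTCF lists 33939 and 32712. The shares called are therefore not independent of the groups, and the size of this effect was not tested. A region was called in a library when a peak of that library overlapped it by at least 1 bp. WT_CTCF replicates 1 and 2 called 85.9% and 93.0% of the clustered regions, and MUT_CTCF replicates 1 and 2 called 57.4% and 55.7%. The groups did not overlap. WT_CTCF averaged 89.5% ± 5.03 and MUT_CTCF 56.6% ± 1.17 (SD, n = 2 each), a difference larger than the spread between replicates. The exact two-sided permutation test gave p = 0.333, the smallest that 2 libraries against 2 allow, and the same holds for every permutation test below.

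Regions outside the clusters lost calls to a similar extent. Regions outside chains of 3 or more were called in 86.4%, 93.5%, 58.5% and 56.3% in the same order of libraries. Clustered minus other regions gave -0.51 and -0.50 percentage points in WT_CTCF and -1.08 and -0.52 in MUT_CTCF, and the change of that difference, -0.30 points, was within the spread between MUT_CTCF replicates (SD 0.40; exact permutation p = 0.333). A peak in both WT_CTCF libraries and in no MUT_CTCF library was found in 2112 clustered regions (20.1%), beside 19.5% of all regions in the table, and the opposite pattern in 3. With WT_CTCF replicate 1 left out, so that 1 WT_CTCF peak sufficed, the share of clustered regions was 33.4%. A peak in all 4 libraries was found in 5551 clustered regions (52.8%), beside 52.6% of all regions. With all libraries, both shares lay near the background.

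The first and last regions of a chain had nearly the same values as the inner ones. Of the 5752 end regions 57.8% and 56.1% were called in the MUT_CTCF libraries, and of the 4752 inner regions 56.8% and 55.3%. In the WT_CTCF libraries the end regions were called in 86.1% and 93.2%, and the inner ones in 85.7% and 92.8%.

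Fewer chains were present in the MUT_CTCF lists. When the chaining rule was applied to each library's own peaks, WT_CTCF replicates 1 and 2 gave 2148 and 2502 chains and MUT_CTCF replicates 1 and 2 gave 939 and 874. Both WT_CTCF lists held more than both MUT_CTCF lists, with means of 2325 ± 250.3 and 906.5 ± 46.0 (SD, n = 2 each; exact permutation p = 0.333). The chains held 15.2% and 16.7% of the WT_CTCF peaks but 9.18% and 8.81% of the MUT_CTCF peaks. The longest chain held 17 peaks in each WT_CTCF library, 9 in MUT_CTCF replicate 1 and 7 in MUT_CTCF replicate 2. The whole lists held 49987, 54001, 33939 and 32712 peaks, and a shorter list has fewer neighbours within a fixed gap. How much of the fall in chains followed from list length was not tested. Of the 2876 joined chains, 1880 (65.4%) kept at least 3 regions called in both WT_CTCF libraries. At least 3 called in both MUT_CTCF libraries were kept in 843 (29.3%). The joined chains rest largely on WT_CTCF positions, so these shares are not independent of the groups either. In 272 chains (9.46%) no region was called in both MUT_CTCF libraries, and in 426 every region was called in all 4.

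**Figure D2:**
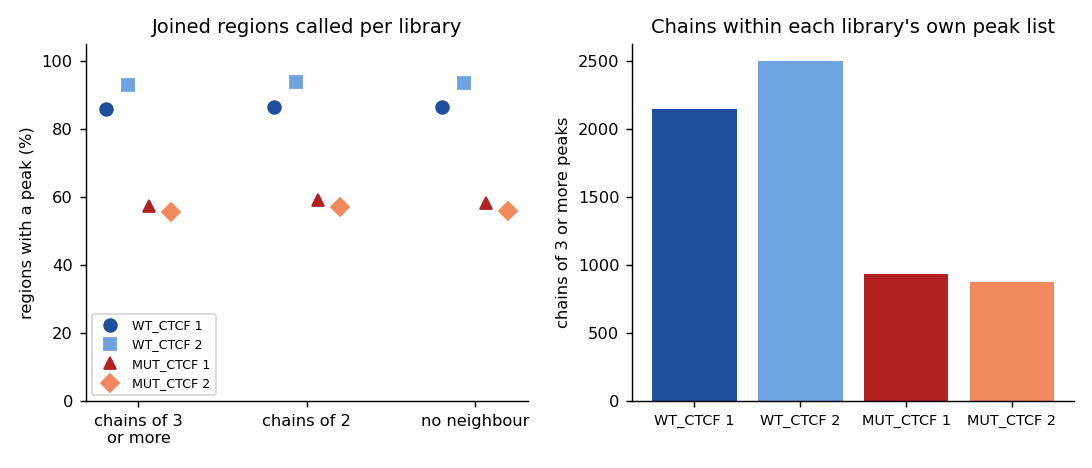
Left, percent of joined regions with a peak in each library (1 point per library) for chains of 3 or more, chains of 2 and regions without a neighbour. The 3 classes have nearly the same 4 values. Right, number of chains of 3 or more peaks in each library's own list, 2148 and 2502 in WT_CTCF against 939 and 874 in MUT_CTCF.

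Strong members of a chain kept their calls in MUT_CTCF more often than weak ones. The score is the peak caller's value on spike-in scaled coverage. Its definition and cutoff are not given in the sources used here, the lowest score in every list was 13, and the read depth is unknown. A lower score depends on background and depth as well as on binding and does not by itself mean less CTCF on DNA. Of the regions called in both WT_CTCF libraries, 89.9% of the strongest per chain (2567 of 2854) were also called in both MUT_CTCF libraries. The shares at ranks 2, 3 and 4 were 69.4%, 45.9% and 35.0%, and at rank 5 or lower 22.9% (83 of 362). The median mean WT_CTCF score fell over these ranks from 987.5 through 349, 87.5 and 55 to 29. The B2-type share went from 9.98% at the first rank to 28.1% at the last group of ranks.

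At similar WT_CTCF score, clustered regions kept their calls somewhat less often than regions without a neighbour up to a score of 800, and nearly equally above it. Up to a mean score of 50 the shares were 0.292% (1 of 343) and 1.03% (7 of 679), and between 50 and 100 they were 3.40% (35 of 1030) and 4.97% (182 of 3663). Of clustered regions with a mean WT_CTCF score above 100 and up to 200, 23.6% (315 of 1335) were called in both MUT_CTCF libraries, and of regions without a neighbour 28.5% (1556 of 5468). Between 200 and 400 the shares were 74.0% and 78.6%, between 400 and 800 they were 96.9% and 97.4%, and between 800 and 1600 they were 99.8% and 99.7%. The difference in the lower bins is given as a description, with no test over regions.

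**Figure D3:**
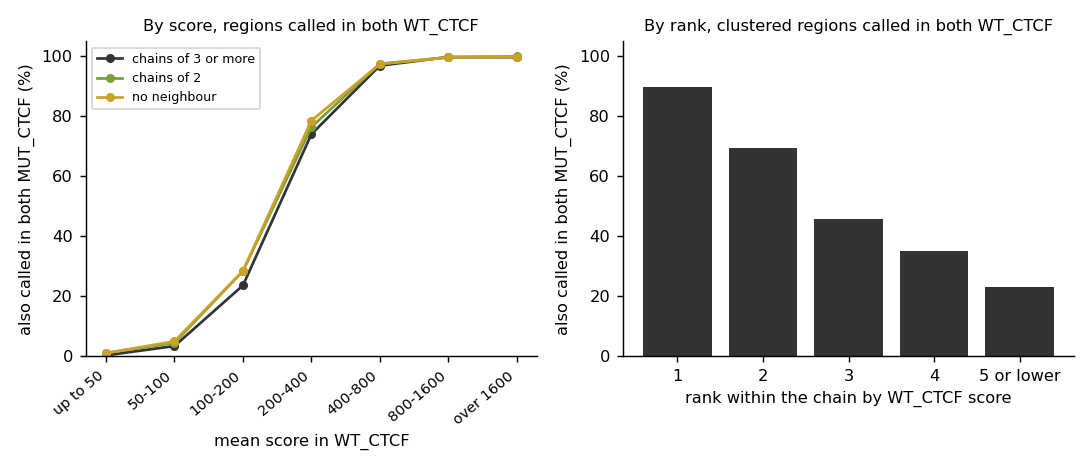
Left, percent of regions called in both WT_CTCF libraries that were also called in both MUT_CTCF libraries, by mean WT_CTCF score. All 3 classes rise from near 0 to nearly every region over the same range. Right, the same percent for clustered regions by rank within their chain, from 89.9% at the first rank to 22.9% at the fifth or lower.

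The members whose calls fell most between the groups were B2-type. They were called in 80.0% and 89.5% in WT_CTCF and in 31.1% and 29.2% in MUT_CTCF. Members with another exact motif were called in 94.0% and 97.1% and in 76.8% and 75.6%, and members without one in 82.2% and 91.4% and in 53.1% and 51.2%. The difference of B2-type minus other motif was -14.0 and -7.58 points in WT_CTCF and -45.7 and -46.4 points in MUT_CTCF, without overlap between groups (exact permutation p = 0.333). Outside the clusters the fall was similar in size, with B2-type regions without a neighbour called in 76.2% and 88.5% in WT_CTCF and in 29.6% and 26.2% in MUT_CTCF. The B2-type members were weak to begin with, with a median mean WT_CTCF score of 79.0 against 513 for another motif and 197 for none. Among members called in both WT_CTCF libraries with a mean score above 50 and up to 100, the share called in both MUT_CTCF libraries was 0.798% (3 of 376) for B2-type members, 5.34% (11 of 206) for another motif and 4.69% (21 of 448) for none. Above 100 and up to 200 the shares were 17.9%, 25.8% and 25.1%, and above 200 and up to 400 they were 67.8% (143 of 211), 80.1% (446 of 557) and 70.8% (443 of 626). In regions without a neighbour the bin above 200 and up to 400 gave 68.1%, 81.5% and 77.6%. At higher scores the kinds of members hardly differed. Above 400 and up to 800 the shares were 95.2% for B2-type members, 98.1% for another motif and 95.9% for none. Above 800 and up to 1600 they were 100%, 99.7% and 99.9%.

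Of the 29 chains made of B2-type regions only, 0 kept 3 regions called in both MUT_CTCF libraries, 10 did so in WT_CTCF, and in 16 no region was called in both MUT_CTCF libraries. Of the 312 chains with at least 3 regions holding another motif, 289 (92.6%) kept 3 in WT_CTCF and 216 (69.2%) in MUT_CTCF. Of the 285 chains without any exact motif or B2-type window, 159 (55.8%) kept 3 in WT_CTCF and 65 (22.8%) in MUT_CTCF. These sets also differed in size and score. The 29 chains held 98 regions and had a median summed WT_CTCF score of 370.5. The 312 held 1418 regions with a median of 2382, and the 285 held 937 with a median of 1346. The part of size and score in the shares kept was not tested.

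Members called in every library had lower scores in MUT_CTCF, by about the same amount as regions elsewhere. Over the 5551 clustered regions with a peak in all 4 libraries, the median log2 score was 9.43 and 9.54 in WT_CTCF and 8.32 and 8.24 in MUT_CTCF. Means were 9.48 ± 0.081 and 8.28 ± 0.056 (SD, n = 2 each), and the difference was -1.20 (exact permutation p = 0.333). The level of clustered regions was above that of other regions by 0.32 and 0.34 in WT_CTCF and by 0.36 and 0.35 in MUT_CTCF on this log2 scale. With limma on log2(score + 1) over all 30317 regions called in all libraries, 5151 of 5551 clustered regions were lower in MUT_CTCF at a Benjamini-Hochberg adjusted p below 0.05 and 0 were higher (0 also at an unadjusted p below 0.05), beside 90.8% of all tested regions lower and 0.0396% higher. Without WT_CTCF replicate 2 limma called 0 of 5553 clustered regions (smallest adjusted p = 0.0527), with 3666 lower at an unadjusted p below 0.05, and without WT_CTCF replicate 1 it called 2622. In these fits the spread comes from the MUT_CTCF pair and the lone WT_CTCF library is assumed to vary like it, and the median log2 difference of clustered regions stayed at -1.13 and -1.25, against -1.18 with all libraries.

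The median of all regions called in all 4 libraries was itself lower in MUT_CTCF by 1.21 on the log2(score + 1) scale. The clustered regions were next compared relative to it. With each library centred on its median, limma called 563 clustered regions lower and 722 higher in MUT_CTCF, beside 8.49% and 10.9% of all tested regions. Without WT_CTCF replicate 1 these counts were 203 and 388, and without WT_CTCF replicate 2 they were 191 and 326. Without MUT_CTCF replicate 1 they were 618 and 680, and without MUT_CTCF replicate 2 the balance turned round, with 687 lower and 648 higher. Of 482 B2-type members 69 (14.3%) passed as lower and 35 (7.26%) as higher, and of 807 B2-type regions without a neighbour 106 (13.1%) and 39 (4.83%). Of 2649 members with another motif 232 (8.76%) passed as lower and 337 (12.7%) as higher, near the shares of all regions. Of 1024 promoter members 149 were lower and 138 higher. The median log2 ratio of mean scores was -1.40 for B2-type members, -1.16 for another motif and -1.18 for none.

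Strong members without a call in both MUT_CTCF libraries were rare. Above a mean WT_CTCF score of 800 they numbered 6 of 2510 in the clusters (0.239%) and 16 of 5562 among regions without a neighbour (0.288%). The 6, named here after their values were seen, lay in chains at Bptf, Wdr18, 1200014J11Rik, Fxr2, Otud3 and Klf1, and 5 of them touched a promoter. The region at the Bptf promoter (chr11:106993291-106993978, G+C 69.6%) scored 3429 and 3780 in WT_CTCF, 231 in MUT_CTCF replicate 1 and had no peak in MUT_CTCF replicate 2. The region at Wdr18 scored 1846 and 1922 in WT_CTCF, 147 in MUT_CTCF replicate 1 and had no peak in the other. Neither holds an exact motif.

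The order of scores within a chain was mostly kept. In 2194 of 2876 chains (76.3%) the same region was strongest in every library in which the chain had a peak. The strongest region was the same between replicates in 89.3% of chains for WT_CTCF and 90.7% for MUT_CTCF, and between a WT_CTCF and a MUT_CTCF library in 84.3% to 85.2%. The strongest region held a median of 60.1% of the summed mean WT_CTCF score of its chain. In the 1858 chains with at least 2 peaks in every library, this share had medians of 55.7% and 55.6% in WT_CTCF and 60.5% and 61.0% in MUT_CTCF, with quartiles that overlapped widely (46.8 to 67.1% in WT_CTCF replicate 1 and 50.9 to 73.6% in MUT_CTCF replicate 1).

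Neighbouring motifs in a chain pointed the same way in most pairs. In 2026 pairs of neighbouring members that both held an exact motif, 1101 (54.3%) lay on the same strand, 423 (20.9%) faced each other and 502 (24.8%) faced away, with a median distance of 2764 bp between motifs. For neighbours over 5000 bp apart the shares were 51.9%, 24.6% and 23.4% of 9610 pairs. Pairs facing away also outnumbered facing pairs just outside the limit, with 25.45% against 22.41% at gaps of 5000 to 10000 bp. At 10000 to 20000 bp the shares were 24.95% and 23.12%, and at 20000 to 50000 bp 23.55% and 23.66%. Beyond 50000 bp facing pairs reached 29.8% and pairs facing away fell to 19.6%, the reverse of the balance inside the chains. Pairs of B2-type members showed 51.5% same, 25.1% facing and 23.4% away (291 pairs), and pairs with another motif 53.2%, 19.8% and 27.0% (1022 pairs). Orientation is a property of the reference sequence and was compared without a test.

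**Figure D4:**
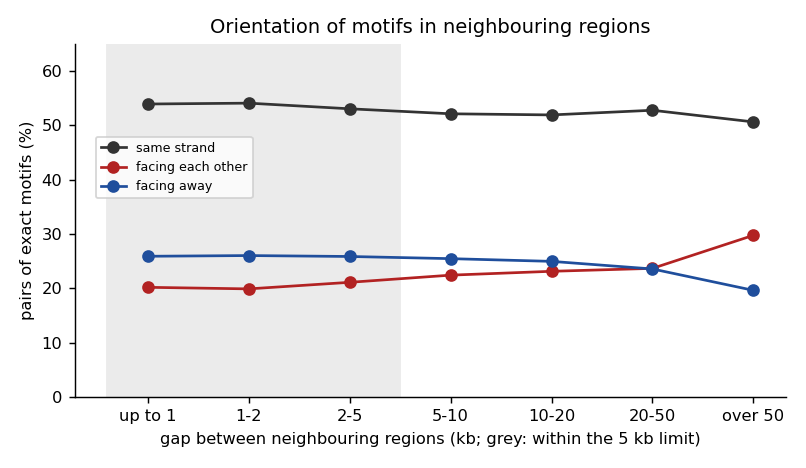
Percent of neighbouring regions with exact motifs on the same strand, facing each other or facing away, by gap between the regions in kb; the grey area is the range inside chains. Facing pairs go from 20.2% at the smallest gaps to 29.8% beyond 50 kb.

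The longest chain lay at Bptf, which encodes the largest subunit of the NURF chromatin remodeller. Its 18 regions spanned 33525 bp (chr11:106993291-107026815), from the promoter outward, away from the gene and into introns of the neighbouring Gm11715, and 12 of them held a B2-type window, of which several are printed above. Peaks were called in 16 and 17 regions in WT_CTCF and in 10 and 8 in MUT_CTCF. Summed scores were 9928 and 10689 in WT_CTCF and 2806 and 2311 in MUT_CTCF. Its region 15, in an intron of Gm11715 and with another motif, scored 1951 and 2233 in WT_CTCF and 1059 and 1126 in MUT_CTCF. With the promoter peak nearly gone, region 15 was the strongest in both MUT_CTCF libraries. The B2-type region 14, identical to the common stretch, scored 47 in both WT_CTCF libraries and had no peak in MUT_CTCF.

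The next longest chains lay at Suz12, a subunit of Polycomb repressive complex 2, and at Malat1, a nuclear long non-coding RNA. The Suz12 chain (chr11:79820260-79856838) held 15 regions, 9 of them B2-type, with 8 and 15 called in WT_CTCF and 4 in each MUT_CTCF library. The Malat1 chain (chr19:5777237-5802646) held 12 regions, 6 of them B2-type, with 6 and 12 called in WT_CTCF and 2 in each MUT_CTCF library. In both chains WT_CTCF replicate 2 called every region and WT_CTCF replicate 1 far fewer, so their length rests on that library. At Malat1 the 2 regions kept in MUT_CTCF were themselves B2-type and scored 1562 and 1854 against 953 and 902, and 758 and 847 against 212 and 212.

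After these, 4 chains held 11 regions each, and the one with the longest span lay in 6720401G13Rik, the annotation's name for Firre, an X-linked long non-coding RNA whose locus is known for a row of CTCF sites. Its 11 regions (chrX:47950215-47976639) were all intronic, and 1 held an exact motif, which was the common B2-type stretch. Peaks were called in 10 regions in each WT_CTCF library and in 8 and 6 in MUT_CTCF. Called peaks scored 47 to 671 in WT_CTCF, and those of MUT_CTCF scored 39 to 118. Of the 6 regions called everywhere, all were lower in MUT_CTCF with limma (adjusted p from 0.00018 to 0.0014), beside 90.8% of all tested regions. Their log2 differences ran from -1.82 to -2.26. After centring, 1 of them passed as lower, beside 8.49% of all tested regions. It was region 8, with scores of 273 and 273 against 48 and 66 (centred log2 difference -1.05, adjusted p = 0.0425 with limma).

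**Figure D5:**
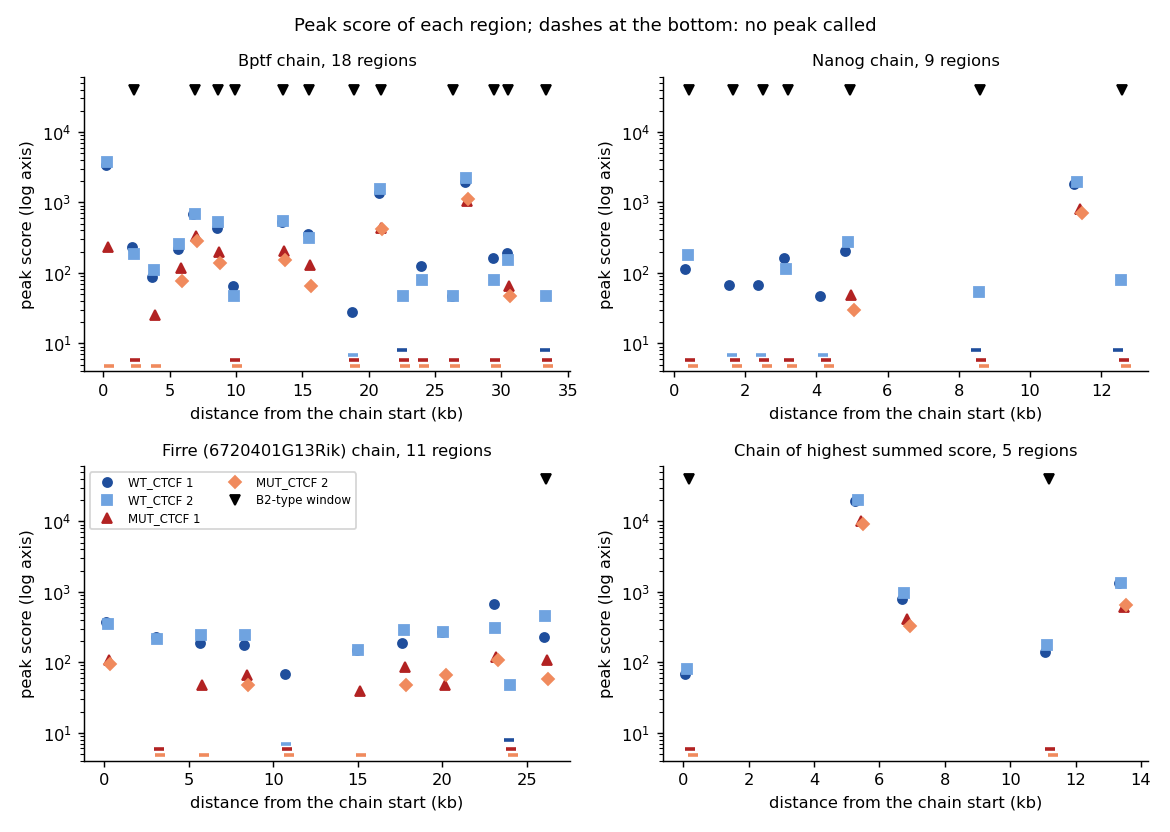
Peak score (log axis) of each region in each library against distance from the start of the chain for 4 chains. Dashes at the bottom mark regions without a peak in that library and black triangles B2-type regions. In the Bptf chain 6 of 12 B2-type regions, and in the Nanog chain 6 of 7, have peaks in WT_CTCF only.

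The chains with the highest summed scores were each carried by 1 very strong site. The chain near Slc46a1, a folate transporter gene (chr11:78262174-78275989), held 5 regions, and its region 2 scored 19245 and 20325 in WT_CTCF and 10112 and 9236 in MUT_CTCF. The chain near Rbm19 (chr5:120538441-120556978) held 7, and its region 6 scored 16766 and 17942 against 10830 and 10416. The chain in Ncs1, a neuronal calcium sensor gene (chr2:31146715-31155243), held 4, and its region 1 scored 17867 and 19339 against 10720 and 11154. These sites fell by less than the median region, with centred log2 differences of 0.18, 0.50 and 0.44 (limma adjusted p = 0.0236, 5.14e-10 and 1.81e-08). The B2-type members of these chains, 2 near Slc46a1 and 1 in Ncs1, had scores from 68 to 177 in WT_CTCF and no peak in MUT_CTCF.

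Among chains with every region called in all libraries, the change was uneven, and the extremes were picked for their ratio and are given without a test of it. The lowest median log2 ratios of MUT_CTCF to WT_CTCF score were -2.26 near Numbl, a gene of the Notch pathway (chr7:28069813-28075939), -1.97 near Foxo1, a transcription factor gene (chr3:52057668-52066835), and -1.95 at Chrnd, an acetylcholine receptor subunit gene (chr1:89081116-89088822). Near Numbl the 3 regions scored 1208 and 1261 against 285 and 230, 362 and 504 against 97 and 47, and 345 and 457 against 145 and 124. All 6 regions near Numbl and Foxo1 held an exact motif that was not B2-type, and the 3 at Chrnd held none. Near Foxo1 the 3 motifs lay on the same strand.

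The highest median log2 ratios were -0.32 near Myl2, a cardiac myosin light chain gene (chr5:122538724-122545808), -0.39 in Igsf21 (chr4:139652241-139657575) and -0.41 in Vax2, a homeobox gene (chr6:83677062-83681710). Each of these chains mixed members that fell with members that did not pass limma's test. Near Myl2 the B2-type region 1 scored 2230 and 2167 against 535 and 554, while region 2 scored 586 and 766 against 705 and 641. That region 1 holds a window with 2 mismatches, but the exact motif nearest its summit is another, with 15 mismatches to the common stretch. In Vax2 region 1 scored 637 and 637 against 164 and 175, and region 2 scored 706 and 454 against 429 and 444. Neighbours a few kilobases apart thus differed in their score ratio, while the median over the chain was high.

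The chain with most regions called in WT_CTCF alone lay at Zfp42, also known as Rex1, a marker gene of pluripotent cells. Its 11 regions (chr8:44371235-44385507) began downstream of the gene and reached into its intron. Peaks were called in 7 and 10 regions in WT_CTCF and in none in MUT_CTCF. All scores were low, from 14 to 190, and 1 region held an exact motif, of the B2 type. After its 6 such regions came chains with 5, among them the Bptf chain with 5 of 18. Taken first for their larger share were a chain in Tex14, a gene of male germ cells (chr11:87256853-87267362), with 5 of 8 regions called in WT_CTCF alone, and a chain upstream of Srsf3, a splicing factor gene (chr17:29148403-29167978), with 5 of 9. In the Tex14 chain 1 region kept its peak, with scores of 840 and 961 against 372 and 372, and in the Srsf3 chain 2 did, with 846 and 1123 against 317 and 344 and with 1141 and 1237 against 453 and 360. In both chains these were the strongest regions.

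Of the genes listed for pluripotency, 4 of 15 annotated ones were touched by a chain. They were Nanog, Pou5f1, Zfp42 and Esrrb, which all encode transcription factors of the pluripotent state. The share of all annotated genes touched by a chain was not counted. The numbers of touched genes, here and in the lists below, therefore show neither enrichment nor lack. Their chains held 31 regions, of which 23 and 25 were called in WT_CTCF and 5 and 4 in MUT_CTCF. Calls with WT_CTCF alone made up 13 of 31 (41.9%), beside 19.5% of all regions and 35.9% of all clustered B2-type regions. Of the 13, 6 lay in the Zfp42 chain, whose scores in WT_CTCF ran from 14 to 190. The part of low score and of B2-type sequence in the 41.9% was not tested. The 4 regions called everywhere were lower with limma, beside 90.8% of all tested regions, and after centring 1 was lower and 1 higher, beside 8.49% and 10.9%. The Nanog chain (chr6:122658785-122671544) held 9 regions, 7 of them B2-type. Its strongest region, number 8, had no exact motif and scored 1833 and 1937 in WT_CTCF and 804 and 712 in MUT_CTCF, while B2-type region 6 scored 203 and 273 against 48 and 30. The other 6 B2-type regions had no peak in MUT_CTCF, and 4 of these had a peak in 1 WT_CTCF library only. The Pou5f1 chain (chr17:35639913-35651296) held 7 regions, of which 2 were called in MUT_CTCF. Its region 7 scored 1018 and 1074 against 613 and 723, a fall smaller than that of the median region (centred log2 difference 0.56, limma adjusted p = 0.0118).

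Of genes known for several CTCF sites close together, 15 of 73 annotated ones were touched by 11 chains with 65 regions, mostly protocadherin genes, with Firre and 2 Hoxd genes. Calls numbered 63 and 63 in WT_CTCF and 49 and 47 in MUT_CTCF, 9 regions (13.8%) were called in WT_CTCF alone, beside 19.5% of all regions, and 40 of 43 tested regions were lower with limma, beside 90.8% of all tested. After centring 9 of 43 were lower and 3 higher, beside 8.49% and 10.9%. The longest chain in Pcdhb17 to Pcdhb20 (chr18:37644203-37666425) held 8 regions, all called in both WT_CTCF libraries and 7 in each MUT_CTCF library. Its region 4 scored 257 and 223 against 263 and 237, and its region 7 scored 424 and 347 against 42 and 41 (centred log2 differences 1.27 and -1.97, limma adjusted p = 0.000971 and 7.54e-05). The chain at Pcdhgc5 (chr18:37896333-37925840) held 7 regions with a peak in every library, and its strongest, region 7, scored 2561 and 2582 against 596 and 583. Of 16 genes for CTCF and cohesin, 1 was touched, Smc3, a core subunit of the cohesin ring. Its chain of 6 regions (chr19:53706518-53724177) had 6 and 5 calls in WT_CTCF and 3 and 4 in MUT_CTCF. No chain touched any of 14 germ layer regulators or the 2 genes of the O-GlcNAc cycle, Ogt and Mgea5, again without a share over all genes.

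At the edge of the rule, the chain with the widest gap inside the limit (4996 bp) lay near Gpatch1 (chr7:36044537-36058368) and held 5 regions, with 5 and 5 called in WT_CTCF and 4 and 4 in MUT_CTCF. The group of 3 with the narrowest gap outside the limit (5001 bp) lay at Xkr5 (chr8:18945748-18954607), with 2 and 3 called in WT_CTCF and 2 and 3 in MUT_CTCF, and summed scores of 6506 and 7167 against 2511 and 2495.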

How the data were processed

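CTCF ChIP-seq libraries of WT_CTCF and MUT_CTCF cells, 2 per group, were grouped by their titles. Per the submitters' notes and methods, reads were trimmed with Trim Galore 0.4.4 and aligned to mm9 with Bowtie2 2.3.4.1, multiply aligned and duplicate reads were removed, and the authors called peaks in each library with MACS2 2.1.1.20160309 on coverage multiplied by spike-in factors. The deposited lists give the caller's score and the summit position of every peak, with no depth. The authors' deposited table of joined regions gives the mean scaled signal (read count) over the 4 libraries, every value a whole multiple of 0.25, and 5 columns of the authors' own DESeq2 comparison (log2 fold change, its error, statistic, p-value, adjusted p-value), which were not used. Unused columns of samples numbered 0.

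Here regions were chained (gap up to 5000 bp, at least 3 regions), and each region took the highest score of its peaks in a library (overlap of at least 1 bp). Shares, chain numbers and medians were compared between 2 and 2 libraries by exact two-sided permutation. Scores in regions called in all 4 libraries were compared over the whole table with limma 3.58.1 in R 4.3.3 on log2(score + 1) with a variance trend, adjusted by Benjamini-Hochberg with a threshold of 0.05, and tested on simulated data. Motifs, 31-base word copies (median over words every 10 bp) and locations used the NCBIM37 genome (mm9) with GENCODE vM1; a promoter was 3000 bp upstream of a start, a region touching a gene but no exon was intronic. Python 3.11.15, numpy 2.4.6, pandas 2.3.3 and scipy 1.17.1 were used. Same-numbered replicates did not deviate together (correlation of WT_CTCF and MUT_CTCF replicate differences over regions -0.0031), so numbers were not taken as pairs.

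Chains named are the 4 with most regions, the 3 with the highest summed WT_CTCF score, the 3 highest and 3 lowest by median score ratio among chains called throughout, the 3 with most regions called in WT_CTCF alone, up to 3 per gene list, and those at the edge of the gap limit. The members, lists and rules were chosen with earlier results of these data known. The B2-type window was added after seeing the data. Alternatives are given in the closing section. Depth is unknown, so no counting intervals are given.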

Additional observations from a re-analysis of the deposited data

How the results depend on the processing

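In every alternative run, including those that left out a library, the share of clustered regions called (-32.9 percentage points, MUT_CTCF minus WT_CTCF), the number of chains per list and the median log2 score kept their direction. Leaving out each library in turn gave -36.5 to -29.4 points, -1596 to -1242 chains and -1.26 to -1.15 on the log2 scale. The count of clustered regions lower with limma (5151) changed to 2065 and 10366 with gap limits of 2500 and 10000 bp, which hold 4314 and 21310 regions, and to 563 after centring on library medians; higher calls (0) changed to 4 with 10000 bp and to 722 after centring. Without single libraries the lower calls ran from 0 (without WT_CTCF replicate 2) to 4416, with 0 higher in each; a lone library was assumed to vary like the other group. The centred counts of 563 lower and 722 higher, an alternative set also fitted without each library after the data were seen, ran from 191 to 687 and from 326 to 680, with more lower than higher without MUT_CTCF replicate 2 (687 and 648).

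The share called in WT_CTCF alone (20.1%) was 21.1% at a gap limit of 2500 bp, 13.6% for scores at or above the pooled median of 250, 27.2% with reciprocal overlap of 50%, 18.9% without multi-copy regions and 22.6 to 33.4% without single libraries. Chains keeping 3 regions in WT_CTCF (65.4%) made up 60.3% and 71.8% at 2500 and 10000 bp, 22.4% with the score limit, 61.7% with reciprocal overlap, 60.8% without multi-copy regions and 65.4 to 87.5% without single libraries. The MUT_CTCF value (29.3%) was 23.0%, 37.1%, 7.48% and 15.3% in the first 4 of these, and 29.3 to 35.4% without single libraries. The motif share of 84.6% with 1 mismatch was 50.2% with none. The same top region (76.3%) was found in 89.3% and 90.7% with WT_CTCF or MUT_CTCF libraries alone. The B2-type share (17.9%), with limits chosen after seeing the data, was 12.6% at 3 mismatches, 24.8% at 8, 13.1% without multi-copy regions and 16.4% without chromosome 11. The causes were not tested beyond the smaller or larger sets these settings make.

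With a replicate block, exact sign flips gave p = 0.5, the smallest they allow, for the share called (-32.9 points), the chains (-1418) and the median log2 score (-1.20), and limma called 5178 lower and 0 higher, or 574 and 736 with centring. The numbers do not pair the libraries, and the block changed no call of direction.

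Depth is unknown, the inputs were not analysed here, and 2 libraries per group from 1 clone each limit every test. Only limma's shared spread reaches significance.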
